A study of Mus musculus with 6 samples.

Results

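The C-type lectin receptor genes of bone marrow-derived macrophages (BMDMs) of wild-type mice were compared with those of *Scd2-m/-m* mice. They were taken as every entry of the count table with the biotype protein_coding whose symbol begins with *Clec* and a digit, or with *Cd209*, which gave 37 genes of 40481. Of these, 19 had enough counts to be tested and 18 did not. RNA came from unstimulated BMDMs, which are mouse bone marrow cells cultured into macrophages with a conditioned medium that supplies growth factor, from 3 samples labelled wild type and 3 labelled *Scd2-KO*, called *Scd2-m/-m* here, and 1 poly(A)-selected library was made of each. In *Scd2-m/-m* mice a floxed *Scd2* gene, which encodes a stearoyl-CoA desaturase, is deleted by a Cre recombinase expressed from the lysozyme M gene, so deletion is limited to myeloid cells and need not reach every one of them. The methods give male and female mice and 1 age range for all experiments, with no age or sex for a library, and they do not say whether the wild-type mice carried Cre or floxed alleles. The labels do not say that the samples of a genotype came from separate animals, so p-values here measure only the spread between these samples, which may be technical.

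C-type lectin receptors are membrane proteins with a carbohydrate-recognition fold through which myeloid cells bind sugars and lipids of fungi and mycobacteria, molecules of dying cells, and surface proteins of other cells. Activating members pass their signal through an adaptor with a tyrosine motif (FcRγ or DAP12) or through a shortened motif of their own to the kinase SYK and then to CARD9 and NFkB, whereas inhibitory members carry a motif that recruits the phosphatases SHP-1 and SHP-2. Most of the mouse genes lie in a pair of gene clusters on chromosome 6, one with the dectin-2 group (*Clec4*) and one with the dectin-1 and *Clec2* groups inside the natural killer gene complex.

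A library held between 46285176 and 57629638 counts on genes, and levels are given as CPM, the counts of a gene divided by its library's total and multiplied by a fixed number, after scaling by the trimmed mean of M values (TMM). *Scd2* itself stood at 66.9, 77.7 and 62.7 CPM in the wild-type and at 59.5, 37.9 and 39.8 CPM in the *Scd2-m/-m* libraries, in the order of replicates 1 to 3 that is used throughout. All *Scd2-m/-m* libraries were below all wild-type libraries, with replicate 1 just below, and the log2 fold change of -0.59 (SE 0.19) was not called (quasi-likelihood test of edgeR, Benjamini-Hochberg FDR = 0.10). Without *Scd2-m/-m* replicate 1 it was -0.83 (FDR = 8.87e-05). The summed level of 12 macrophage markers was 42100 to 42300 CPM for wild type and 26700 to 27400 CPM for *Scd2-m/-m*, with 6 lower (among them *Lyz2*, *Csf1r* and *Adgre1*) and 2 higher (*Cd68* and *Lgals3*). Most of that difference was *Lyz2*, the gene that carries the Cre, at 22100 to 23200 CPM and 8660 to 9370 CPM, and the other 11 markers summed to 19100 to 20000 CPM and 17700 to 18400 CPM. Monocyte and progenitor markers summed to 48.1 to 68.2 CPM and 146 to 207 CPM, with 7 of 10 tested higher, and all 12 cell division genes were higher, at 51.8 to 61.1 CPM and 163 to 183 CPM. Dendritic cell markers summed to 592 to 639 CPM and 600 to 638 CPM with 3 of 12 tested higher (*Ccr7*, *Naaa* and *Flt3*), and natural killer and T cell markers to at most 0.378 CPM with *Gzma*, *Ncr1* and *Prf1* at 0 in every library.

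Among the 19 tested C-type lectin receptor genes, 2 were higher in *Scd2-m/-m* BMDMs (*Clec2i* and *Clec12a*), 5 were lower (*Clec4n*, *Clec4a2*, *Clec4a4*, *Clec4b1* and *Clec2d*) and 12 were not called. A gene was called at an FDR below 0.05, adjusted over all 14778 genes tested. The 7 called genes were 36.8% of those tested, beside 17.5% of all genes tested, and the background was 9.65% for higher and 7.84% for lower genes. Of the fitted log2 fold changes, 10 were above and 9 below 0, with a median of 0.05 beside 0.00 over all genes. In 10 of the 19 genes the libraries of the genotypes did not overlap, beside 34.8% of all genes. With a log2 fold change above 1 in size required as well, *Clec2i* and *Clec4n* remained, beside 2.84% of all genes, and with one above 2 none did, beside 0.663%. In bulk RNA, fewer cells that carry a receptor and less RNA per cell cannot be told apart. The part of the changes in macrophage, monocyte and cell division markers in any of these results was not tested.

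**Figure D1:**
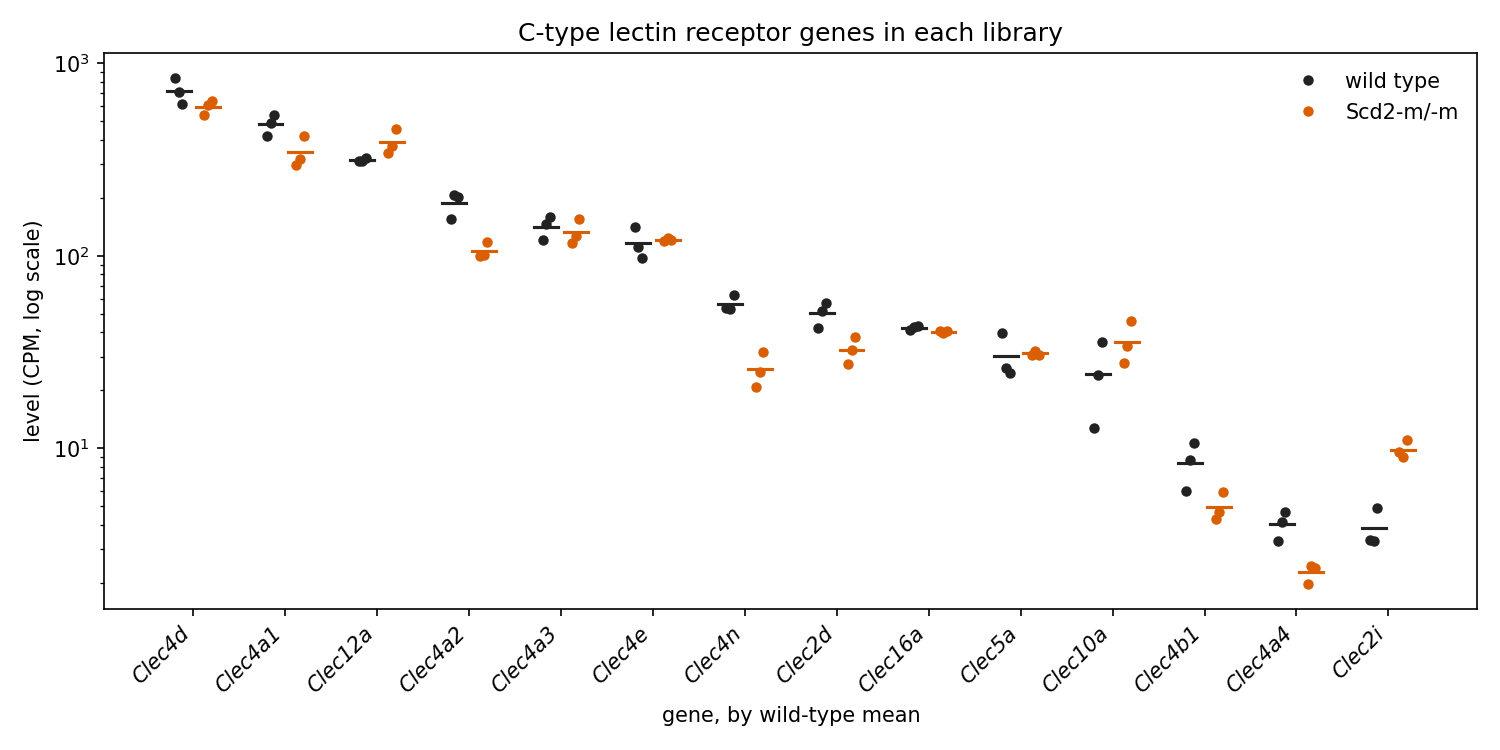
Level of each C-type lectin receptor gene with a mean above 1 CPM in both genotypes, in CPM on a log axis, ordered by the wild-type mean. Each point is 1 library (black, wild type; orange, *Scd2-m/-m*; replicates 1 to 3 from left to right) and each bar is the mean of 3 libraries. The orange points of *Clec4a2*, *Clec4n*, *Clec2d*, *Clec4b1*, *Clec4a4*, *Clec4a1* and, narrowly, *Clec16a* lie below all black points and those of *Clec2i* and *Clec12a* above them.

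Per length of exon, which allows genes to be set side by side, *Clec4d* was the most abundant receptor transcript in wild-type BMDMs, with a mean of 450 RPKM (CPM divided by the exon length in kilobases; lowest 385, highest 522), and *Clec4a1* came next with 309 RPKM (270 to 344). *Clec4a3* followed at 107 RPKM (90.5 to 119) and stood apart from both neighbours. *Clec4a2* at 64.2 RPKM (53.2 to 70.3) and *Clec12a* at 56.7 RPKM (56.0 to 57.9) had overlapping ranges. The same held for *Clec2d* at 41.4 RPKM (34.8 to 46.6) and *Clec4n* at 39.8 RPKM (37.4 to 44.2), while *Clec4e* at 23.5 RPKM (19.5 to 28.5) was below them. *Clec4b1*, *Clec10a*, *Clec5a*, *Clec4a4* and *Clec16a* lay between 10.8 and 5.07 RPKM and *Clec2i* at 1.24 RPKM. In *Scd2-m/-m* BMDMs *Clec12a*, at 70.1 RPKM, stood above *Clec4a2*, at 36.3 RPKM, and *Clec4n*, at 18.1 RPKM, stood below *Clec4e*, at 24.4 RPKM. The order between genes in RPKM rests on lengths that merge all annotated exons of a gene, whichever transcript is made. In CPM *Clec12a* stood above *Clec4a2* and *Clec4n* below *Clec4e* in both genotypes. Summed over the 37 genes, the level was 2186, 2189 and 2175 CPM in wild-type and 1677, 1829 and 2111 CPM in *Scd2-m/-m* libraries. The largest shares of the difference of the means, -311 CPM, came from *Clec4a1* (-137 CPM) and *Clec4d* (-126 CPM), neither of which was called, and *Clec4a2* (-81.5 CPM), against +74.2 CPM for *Clec12a*.

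Activating receptors that signal through an adaptor were the first group. Of its 6 genes 5 were tested, and 2 were lower. *Clec4n* (ENSMUSG00000023349) encodes dectin-2, a receptor for fungal mannans that pairs with FcRγ. Its level was 53.6, 53.1 and 62.8 CPM in wild-type and 20.9, 24.9 and 31.5 CPM in *Scd2-m/-m* libraries, so even the highest *Scd2-m/-m* library was well below the lowest wild-type one. The mean went from 56.5 ± 5.47 to 25.7 ± 5.37 CPM (SD, n = 3 each), 45.6% of wild type, a log2 fold change of -1.13 (SE 0.14, edgeR FDR = 0.00121), and with 1 library left out it lay between -1.30 and -1.001. *Clec4b1*, which encodes the FcRγ-coupled receptor DCAR, stood at 6.00, 8.69 and 10.7 CPM in wild-type and at 4.28, 4.67 and 5.92 CPM in *Scd2-m/-m* libraries. These ranges nearly touched. The log2 fold change was -0.77 (SE 0.20, edgeR FDR = 0.0226), and the call was lost without wild-type replicate 2 (FDR = 0.0795) or without *Scd2-m/-m* replicate 1 (0.0985) or 2 (0.0930).

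The remaining adaptor-coupled receptors were not called. *Clec4d* encodes MCL, which binds mycobacterial trehalose dimycolate and forms dimers with other receptors of the cluster. It stood at 834, 708 and 615 CPM in wild-type and at 536, 607 and 636 CPM in *Scd2-m/-m* libraries, with *Scd2-m/-m* replicate 3 above wild-type replicate 3 (log2 fold change -0.28, SE 0.10, edgeR FDR = 0.0899). The gene was called lower in 4 of 16 alternative fits. These were DESeq2, limma-voom with quality weights, the fit with no filter on low counts, and the fit without wild-type replicate 3 (-0.38, FDR = 0.00854). *Clec4e* encodes Mincle, the inducible receptor for the same glycolipid. Its level was 142, 112 and 97.0 CPM in wild-type and 119.5, 124 and 120.2 CPM in *Scd2-m/-m* libraries, and the *Scd2-m/-m* values fell inside the wild-type range. The log2 fold change was 0.05 with an approximate 95% confidence interval from -0.18 to 0.29 (edgeR FDR = 0.812), and it was -0.07 without wild-type replicate 3. All intervals given here were taken from the SE and the normal distribution. With so few libraries they are narrower than the edgeR test itself would give. *Clec5a*, whose product MDL-1 pairs with DAP12 and DAP10, had 39.5, 26.1 and 24.5 CPM in wild-type and 30.7, 32.2 and 30.5 CPM in *Scd2-m/-m* libraries. Wild-type replicate 1 was the highest of all 6 and the other wild-type libraries the lowest, so the value of 0.05 (interval -0.30 to 0.40, edgeR FDR = 0.887) became 0.30 (FDR = 0.0145, called higher) without wild-type replicate 1, -0.04 without replicate 2 and -0.08 without replicate 3. *Clec4b2* had at most 15 counts in a library and was not tested.

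Of the 4 inhibitory receptors, 2 were lower, 1 was higher and 1 was not called. *Clec4a2* (ENSMUSG00000030148) encodes DCIR, which carries an inhibitory motif and binds glycans on host cells. It stood at 156, 206 and 202 CPM in wild-type and at 99.7, 101 and 118 CPM in *Scd2-m/-m* libraries. The genotypes were apart in every library, with means of 188 ± 27.9 and 106 ± 10.5 CPM (SD, n = 3 each), 56.6% of wild type, and a log2 fold change of -0.82 (SE 0.11, edgeR FDR = 0.000793). *Clec4a4*, which encodes the related inhibitory receptor DCIR2, had 3.32, 4.16 and 4.66 CPM in wild-type and 1.99, 2.47 and 2.39 CPM in *Scd2-m/-m* libraries. It was lower by nearly the same log2 fold change, -0.83 (SE 0.17, edgeR FDR = 0.00393), at a far lower level. *Clec4a4* shares 15.7% of its 50-base transcript stretches with other genes, most with *Clec4a2*, and *Clec4b1* shares 8.68%, also most with *Clec4a2*, so these values are uncertain where the counting could split or move reads between them.

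*Clec12a* (ENSMUSG00000053063) encodes MICL, an inhibitory receptor for uric acid crystals of dead cells. Its level was 309.6, 312 and 319.9 CPM in wild-type and 339.8, 369 and 454 CPM in *Scd2-m/-m* libraries. The wild-type libraries lay close together, and all *Scd2-m/-m* libraries were above them but spread widely. The means were 314 ± 5.50 and 388 ± 59.4 CPM (SD, n = 3 each), 124% of wild type, and the log2 fold change was 0.31 (SE 0.09, edgeR FDR = 0.0309). The call was lost without any 1 library except *Scd2-m/-m* replicate 1, at an FDR of 0.0667, 0.116 and 0.0558 without wild-type replicates 1, 2 and 3 and of 0.0685 and 0.0822 without *Scd2-m/-m* replicates 2 and 3, and without the last the log2 fold change was 0.18. *Clec12b*, whose product is also inhibitory, had 0.238 to 0.295 CPM in wild-type and 0.155 to 0.484 CPM in *Scd2-m/-m* libraries and was not called (log2 fold change 0.36, edgeR FDR = 0.656).

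The other genes of the DCIR group, *Clec4a1* and *Clec4a3*, were abundant and not called. *Clec4a1* stood at 420.4, 488 and 536 CPM in wild-type and at 297, 319 and 419 CPM in *Scd2-m/-m* libraries, and the highest *Scd2-m/-m* library was just below the lowest wild-type one. The log2 fold change was -0.48 (SE 0.14) at an FDR of 0.0554, just short of a call, and 10 of 16 alternative settings called it lower, among them DESeq2 (FDR = 0.0456) and the fits without wild-type replicate 1 (FDR = 0.0253) or *Scd2-m/-m* replicate 3 (FDR = 0.00107). *Clec4a3* had 120.1, 147 and 159 CPM in wild-type and 117, 126 and 154 CPM in *Scd2-m/-m* libraries. The ranges lay over each other, with a log2 fold change of -0.10 and an interval from -0.34 to 0.15 (edgeR FDR = 0.666).

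The *Clec2* genes encode small lectins that inhibitory and activating receptors of the NKR-P1 family on natural killer cells recognise, so that here the lectin is the ligand. Of the 6 genes, 2 were tested and they moved in opposite directions. *Clec2i* (ENSMUSG00000030365), which encodes Clr-g, had 3.34, 3.32 and 4.90 CPM in wild-type and 9.56, 8.99 and 11.01 CPM in *Scd2-m/-m* libraries. Every *Scd2-m/-m* library was above every wild-type library by a wide margin. Its mean went from 3.85 ± 0.905 to 9.85 ± 1.04 CPM (SD, n = 3 each), 256% of wild type, with a log2 fold change of 1.35 (SE 0.15, edgeR FDR = 3.79e-05), between 1.26 and 1.56 with 1 library left out. *Clec2d* (ENSMUSG00000030157), which encodes Clr-b, the ligand of an inhibitory NKR-P1 receptor, had 42.3, 52.0 and 56.6 CPM in wild-type and 27.5, 32.4 and 37.7 CPM in *Scd2-m/-m* libraries. It was lower without overlap, at 50.3 ± 7.31 and 32.5 ± 5.11 CPM (SD, n = 3 each), 64.7% of wild type (log2 fold change -0.63, SE 0.13, edgeR FDR = 0.0137). *Clec2i* shares 4.13% of its transcript stretches with other genes, most with *Clec2g*, which had between 0 and 23 counts in a library.

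*Clec10a* encodes the galactose and N-acetylgalactosamine receptor MGL1, an uptake receptor of alternatively activated macrophages. It had 12.8, 24.1 and 35.9 CPM in wild-type and 27.8, 34.1 and 45.8 CPM in *Scd2-m/-m* libraries. The ranges overlapped and wild-type replicate 1 lay far below the rest, with a log2 fold change of 0.57 and an interval from -0.31 to 1.44 (edgeR FDR = 0.480). *Clec10a* was called higher in 2 of 16 alternative fits, limma-voom with quality weights and the fit with the replicate number as a block. *Clec16a*, which encodes a regulator of mitophagy and endosomes rather than a surface receptor, varied little in both genotypes, at 41.4, 42.8 and 43.0 CPM and 40.6, 39.7 and 40.7 CPM. Its *Scd2-m/-m* libraries were all below its wild-type libraries, by a log2 fold change of -0.07 (interval -0.19 to 0.04, edgeR FDR = 0.456). The genes of receptors with the shortened motif, *Clec1b* (CLEC-2, the platelet receptor for podoplanin) and *Clec9a* (DNGR-1, a receptor for actin of dead cells on cross-presenting dendritic cells), stood at 0.322 to 1.02 and 0.282 to 0.433 CPM in wild-type and at 0.808 to 1.43 and 0.378 to 0.448 CPM in *Scd2-m/-m* libraries. Neither was called (edgeR FDR = 0.0866 and 0.767), and the exons of these neighbouring genes overlap on the same strand. *Clec1b* was called higher in 4 of 16 alternative fits, among them the one without wild-type replicate 2 (log2 fold change 1.64, FDR = 0.0151). *Clec1a*, an endothelial and myeloid melanin receptor, had 0.393 to 0.584 and 0.671 to 1.15 CPM (log2 fold change 0.88, edgeR FDR = 0.0844). It was called higher in 1 of 15 alternative fits, limma-voom with quality weights. The secreted *Clec11a* had 0.315 to 0.434 and 0.322 to 0.577 CPM (log2 fold change 0.24, edgeR FDR = 0.720, and -0.01 without *Scd2-m/-m* replicate 2).

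The 18 untested genes had at most 23 counts in a library. The 7 genes of the SIGN family, *Cd209a* to *Cd209g*, which encode relatives of the dendritic cell receptor DC-SIGN, had at most 6 counts each, and *Cd209b*, *Clec3a* and *Clec4g* had 0 in every library. A count of 0 allows up to 3 counts, or 0.0516 to 0.0650 CPM depending on the library, for counting error only and with each count taken as independent. Of counts from 1 to 20, 60.9% to 64.9% per library were even, and what 1 count stands for is not stated, so this limit may be too low. *Clec3b*, which encodes the secreted protein tetranectin, had 0, 1 and 0 counts in wild-type and 6, 4 and 6 counts in *Scd2-m/-m* libraries. *Clec4f*, a Kupffer cell receptor gene, had 0, 0 and 1 counts in wild-type and 4, 1 and 1 in *Scd2-m/-m* libraries, and *Clec2h* had 0 in all wild-type and 1 in all *Scd2-m/-m* libraries. *Clec2e*, *Clec2l*, *Clec14a* and *Clec18a* had at most 4 counts in a library. The main fit ran no test on these genes, and the alternative fit with no filter on low counts called none of them.

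*Clec7a*, which encodes the beta-glucan receptor dectin-1, is listed with the biotype polymorphic_pseudogene and so was not a member, and it is named here after its values were seen. Its level was 40.7, 44.1 and 45.2 CPM in wild-type and 51.5, 53.7 and 65.0 CPM in *Scd2-m/-m* libraries. All *Scd2-m/-m* libraries were above all wild-type libraries, with a log2 fold change of 0.39 (SE 0.08, edgeR FDR = 0.00580). Within single libraries the ratio of *Clec7a* to *Clec4n*, dectin-1 to dectin-2, was 0.761, 0.831 and 0.720 in wild-type and 2.47, 2.16 and 2.06 in *Scd2-m/-m* BMDMs in CPM. The ratio of *Clec12a* to *Clec4a2* lay between 1.52 and 1.99 for wild type and between 3.41 and 3.84 for *Scd2-m/-m*. Each ratio sets a gene called higher over one called lower, so the separation of the genotypes follows from those calls. Such ratios show unequal change and not which gene moved. The pseudogene entries *Clec2f* and *Clec2j* had at most 0.103 CPM.

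The calls are given here by place. From *Clec4a1* to *Clec4e*, over 368 kb of chromosome 6 (GRCm38, chr6:122921848-123289870), lie 9 members. Of these, 8 were tested, 4 were lower and none was higher, beside 7.84% lower and 9.65% higher over all tested genes. No other tested gene lies between these members. The genes called lower, *Clec4a4* (chr6:122990367-123024105), *Clec4b1* (chr6:123049962-123071555), *Clec4a2* (chr6:123106428-123143999) and *Clec4n* (chr6:123229843-123247021), are neighbours in the middle of this stretch among the tested genes and lie on the plus strand. As given above, *Clec4a4* and *Clec4b1* share sequence with the more abundant *Clec4a2*, so their calls may not be separate from its call. *Clec4a1* and *Clec4a3*, before *Clec4a4*, and *Clec4d* (chr6:123262111-123275265), beyond *Clec4n*, also lie on the plus strand and were not called. *Clec4e* (chr6:123281789-123289870, minus strand), at the far end, was not called either. The unbroken run of lower genes depends on the FDR limit. *Clec4a1* (log2 fold change -0.48, edgeR FDR = 0.0554) was called lower in 10 of 16 alternative fits and *Clec4d* in 4. From *Clec2h* to *Clec7a*, over 810 kb (chr6:128662385-129472779), lie 10 members, of which 7 were tested, with *Clec2i* (chr6:128887588-128898167) and *Clec12a* (chr6:129342691-129365303) higher and *Clec2d* (chr6:129180615-129186534) lower. Of the 7 other tested genes there, *Clec7a* and *BC064078* were higher and *Gm27514* was lower. None of the 4 tested genes elsewhere (*Clec5a*, *Clec10a*, *Clec11a* and *Clec16a*) was called. Whether calls depend on place was not tested.

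**Figure D2:**
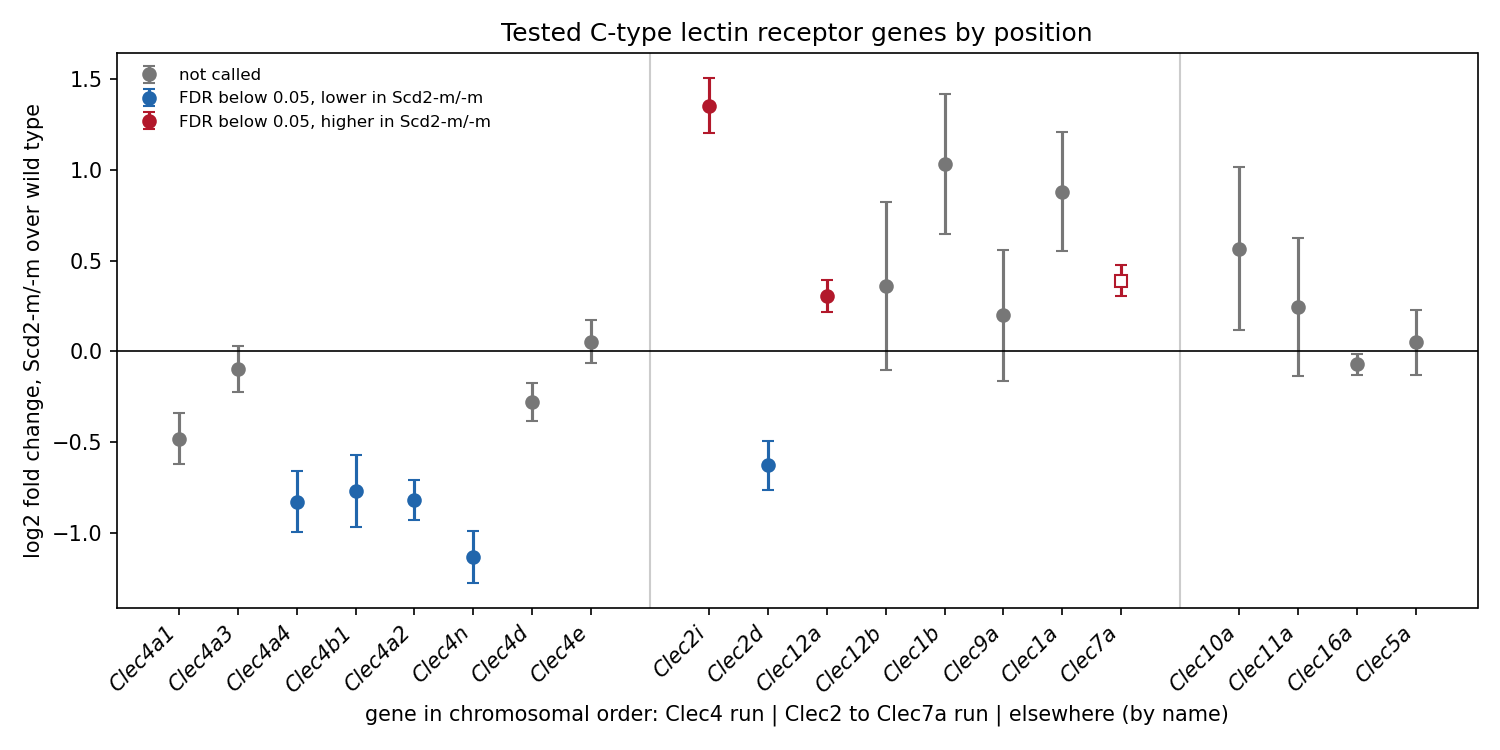
Log2 fold change of *Scd2-m/-m* over wild type for the 19 tested C-type lectin receptor genes and *Clec7a* (open square, not a member), in chromosomal order within each cluster and by name elsewhere. Bars are 1 standard error, and color marks the call at an FDR below 0.05. Lower calls sit side by side from *Clec4a4* to *Clec4n*, and both directions occur from *Clec2i* to *Clec7a*.

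Promoter sequence is shown for a pair of *Clec4* genes called lower, for *Clec4e* of the same stretch, which was not called, and for *Clec12a* of the other stretch, which was higher. Of the 37 genes, 31 had an entry in the RefSeq promoter table (GRCm38.p6), and *Clec10a*, *Clec1a*, *Clec3a*, *Clec3b*, *Clec4a4* and *Clec4n* had none. The 250 bases before the RefSeq start are shown 5′ to 3′ on the strand of the gene, with matches to the core of PU.1, the myeloid factor encoded by *Spi1*, in capitals (GAGGAA, or its reverse complement TTCCTC). The regions are chr6:123122440-123122689 (plus strand) for *Clec4a2*, chr6:123049712-123049961 (plus) for *Clec4b1*, chr6:129349994-129350243 (plus) for *Clec12a* and chr6:123289872-123290121 (minus) for *Clec4e*. The RefSeq starts used for *Clec4a2* and *Clec12a* lie inside the gene spans given above, which begin further upstream, and sequence before the upstream starts was not examined.
Clec4a2: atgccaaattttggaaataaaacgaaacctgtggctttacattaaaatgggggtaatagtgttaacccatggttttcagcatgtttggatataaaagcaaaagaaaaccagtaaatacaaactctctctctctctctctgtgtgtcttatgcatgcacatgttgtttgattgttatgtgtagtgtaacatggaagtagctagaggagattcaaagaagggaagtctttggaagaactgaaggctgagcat
Clec4b1: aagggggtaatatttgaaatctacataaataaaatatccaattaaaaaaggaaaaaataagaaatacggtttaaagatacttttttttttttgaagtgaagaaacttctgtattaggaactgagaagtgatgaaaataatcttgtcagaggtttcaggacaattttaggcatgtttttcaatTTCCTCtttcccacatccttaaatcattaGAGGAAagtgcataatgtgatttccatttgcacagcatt
Clec12a: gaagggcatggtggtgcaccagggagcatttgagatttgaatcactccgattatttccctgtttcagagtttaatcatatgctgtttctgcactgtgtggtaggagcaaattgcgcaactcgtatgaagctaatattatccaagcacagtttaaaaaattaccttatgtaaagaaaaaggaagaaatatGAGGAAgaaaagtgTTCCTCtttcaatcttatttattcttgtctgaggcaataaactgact
Clec4e: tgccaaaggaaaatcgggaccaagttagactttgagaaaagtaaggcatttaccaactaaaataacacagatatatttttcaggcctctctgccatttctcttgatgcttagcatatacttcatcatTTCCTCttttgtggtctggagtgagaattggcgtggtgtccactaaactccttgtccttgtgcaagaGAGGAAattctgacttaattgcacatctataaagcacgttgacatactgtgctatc
*Clec4b1*, *Clec12a* and *Clec4e*, which were lower, higher and not called, each held 2 matches, whose first bases lie 68 and 39, 61 and 47, and 123 and 56 bases before the start, and *Clec4a2*, *Clec2d* and *Clec2i* held none. The core was found in 13 of 31 members, beside 23.1% of 27025 promoters of the same length on either strand. The AP-1 motif TGANTCA was found in 7 members beside 6.87% of promoters and the C/EBP motif TTGCNNAA in 5 beside 9.55%. The interferon response core (GAAA, any 2 letters, GAAA) was found in 2 (*Clec2d* and *Clec4b1*) beside 3.04%, and the E-box CACGTG in none beside 6.05%. These counts take in untested members, and of those with the AP-1 motif only *Clec12a* was tested. The promoters of *Cd209f* and *Cd209g*, and those of *Clec2e* and *Clec2h*, all with that motif, share long runs of letters. The interferon core of *Clec4b1* overlaps its first PU.1 match. A match is a description of letters, not of binding, and *Spi1* itself was lower by a log2 fold change of -0.23 (edgeR FDR = 0.0323).

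Genes that act below the receptors were taken from a list of 46 adaptors, kinases, phosphatases and transcription factors, all tested. Of these, 3 were higher, 14 lower and 29 not called (37% called beside 17.5% of all genes). The list was chosen with earlier results of these data known, so its share is not a test against that background. *Fcer1g*, the FcRγ chain with which dectin-2, MCL, Mincle and DCAR pair, had 1299, 1290 and 1403 CPM in wild-type and 1328, 1263 and 1460 CPM in *Scd2-m/-m* libraries (log2 fold change 0.02, edgeR FDR = 0.875, with a sign that turned under 3 settings). *Tyrobp*, which encodes DAP12, had 1170, 1092 and 1207 CPM in wild-type and 1004, 1004 and 995 CPM in *Scd2-m/-m* libraries. It was lower without overlap (log2 fold change -0.21, SE 0.06, edgeR FDR = 0.0356), but the call was lost with any 1 library left out, at an FDR of 0.0599 to 0.140. *Hcst*, which encodes DAP10, had 16.7, 17.5 and 14.8 CPM in wild-type and 13.02, 12.3 and 13.6 CPM in *Scd2-m/-m* libraries. It was lower without overlap (log2 fold change -0.33, SE 0.09, edgeR FDR = 0.0199), and its call was lost without wild-type replicate 1 (FDR = 0.0515) or 2 (0.119) or without *Scd2-m/-m* replicate 2 (0.108). *Syk*, the kinase that binds FcRγ and DAP12, and *Card9*, which links it to NFkB, were not called (log2 fold changes -0.05 and 0.10, edgeR FDR = 0.621 and 0.329).

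*Src*, a kinase of the family that phosphorylates the receptor motifs, had 13.5, 12.7 and 11.7 CPM in wild-type and 6.75, 7.66 and 6.31 CPM in *Scd2-m/-m* libraries, lower by a log2 fold change of -0.87 (SE 0.10, edgeR FDR = 6.77e-05). The NFkB genes *Nfkb1*, *Relb* and *Nfkb2* were each lower by -0.38 (edgeR FDR = 0.000386, 0.000586 and 0.000805), while *Rela* and *Rel*, each at -0.14, were not called (edgeR FDR = 0.146 and 0.176) and their libraries overlapped. *Ptpn6*, which encodes SHP-1, the phosphatase that DCIR and MICL recruit, had 381, 388 and 387 CPM in wild-type and 324, 306 and 313 CPM in *Scd2-m/-m* libraries (log2 fold change -0.29, SE 0.06, edgeR FDR = 0.00269). Libraries of the genotypes did not overlap for *Src*, *Nfkb1*, *Relb*, *Nfkb2* or *Ptpn6*. *Cblb*, a ubiquitin ligase that marks dectin receptors and SYK for degradation, was higher, at 77.2, 76.3 and 75.9 CPM in wild-type and 122, 111 and 105 CPM in *Scd2-m/-m* libraries (log2 fold change 0.56, SE 0.06, edgeR FDR = 4.52e-05). The early response factors *Egr2* and *Egr3*, which NFAT induces below dectin-1, were higher by 0.86 (edgeR FDR = 5.50e-05) and 0.69 (0.0177), and *Egr3* lost its call without wild-type replicate 2 (FDR = 0.0653) or *Scd2-m/-m* replicate 3 (0.0913). Without wild-type replicate 2, 10 genes of the list were called.

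**Figure D3:**
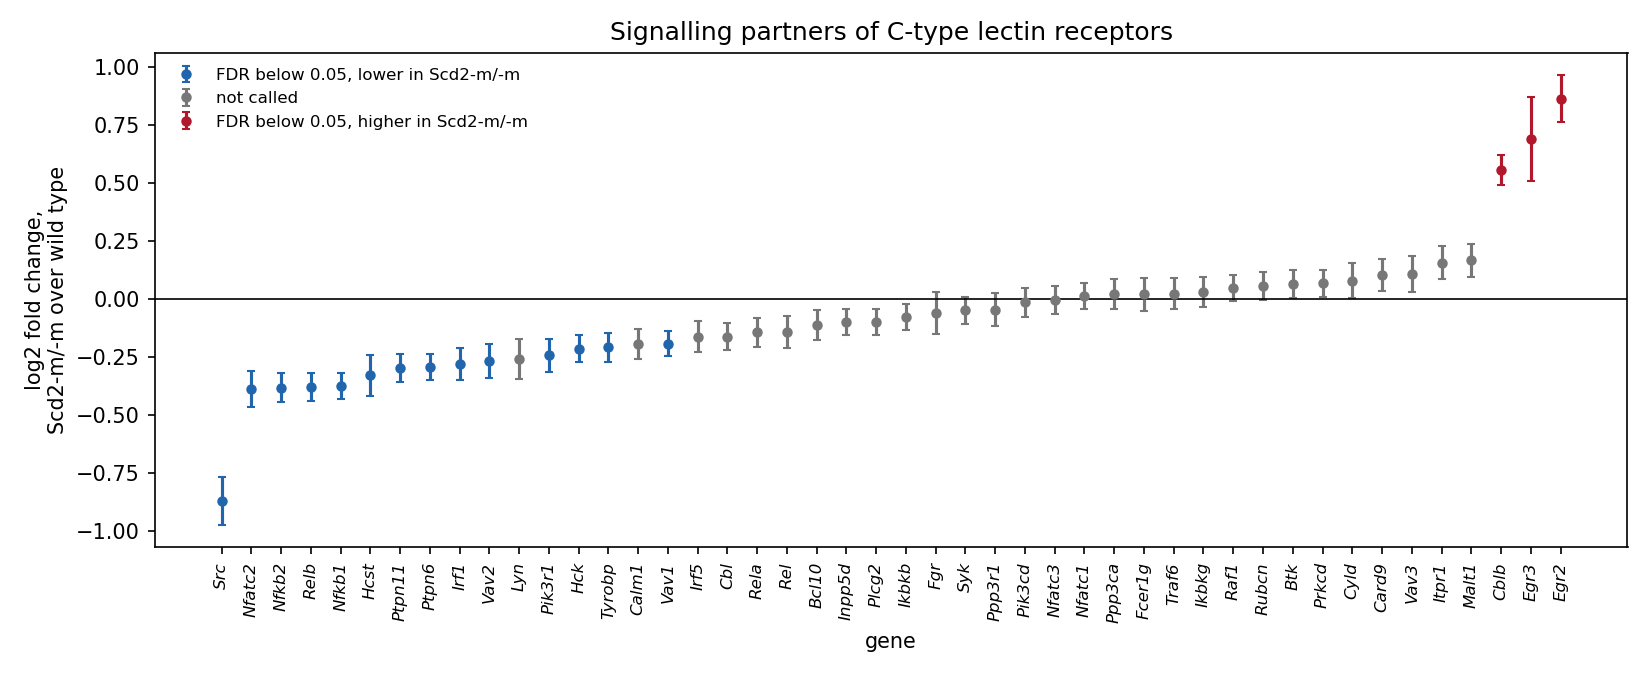
Log2 fold change of *Scd2-m/-m* over wild type for 46 genes that act below C-type lectin receptors, ordered by value. Bars are 1 standard error, and color marks the call at an FDR below 0.05. *Src* lies lowest at -0.87 and *Egr2* highest at 0.86, and *Syk*, *Fcer1g* and *Card9* lie near 0.

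Other genes with a C-type lectin domain but another name, such as collectins and the mannose receptor, were looked at for comparison. Of 51 with an entry, 19 were tested, with 2 higher, 4 lower and 13 not called (31.6% called beside 17.5% of all genes). Their list too was chosen with earlier results known, so this share is not a test either. *Cd207*, which encodes langerin, had 3.63, 2.32 and 1.61 CPM in wild-type and 0.573, 1.09 and 0.826 CPM in *Scd2-m/-m* libraries, lower without overlap (log2 fold change -1.60, SE 0.31, edgeR FDR = 0.00317). *Colec12*, a scavenger receptor with a collagen stem, was lower by -0.55 (edgeR FDR = 0.00203), *Pkd1*, which encodes polycystin-1, by -0.31 (0.00247) and *Thbd*, thrombomodulin, by -0.31 (0.0158). *Susd1* was higher by 0.39 (FDR = 0.0246). With 1 library left out, *Thbd* lost its call in 3 fits (without wild-type replicate 2 or 3 or *Scd2-m/-m* replicate 2, FDR up to 0.0802) and *Susd1* in 5 (all but the one without wild-type replicate 3, FDR up to 0.0790). *Mrc1*, the macrophage mannose receptor, had 335, 447 and 582 CPM in wild-type and 489, 592 and 707 CPM in *Scd2-m/-m* libraries. These ranges overlapped, and it was not called (log2 fold change 0.39, SE 0.25, edgeR FDR = 0.373, and between 0.21 and 0.61 with 1 library left out).

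Receptor genes had a wider spread between libraries of 1 genotype, at the median, than tested genes at large. The 11 members with a mean above 10 CPM over all libraries of both genotypes were used. Their median coefficient of variation was 14.5% for wild type and 14.6% for *Scd2-m/-m*, beside 4.88% and 5.59% over 8192 tested genes above the same level. *Clec10a* reached 47.5% in wild type and *Clec16a* stayed at 2.08%. *Clec5a* and *Clec4e* varied by 27.4% and 19.5% in wild type but by 3.06% and 1.95% in *Scd2-m/-m* libraries, and *Clec12a* the other way, by 1.75% and 15.3%. Wild-type replicate 1 held the lowest wild-type value in 10 of the 19 tested members (36.6% of all genes) and wild-type replicate 3 the highest in 12 (34.9%). Among *Scd2-m/-m* libraries replicate 1 was lowest in 12 (36.1% of all genes) and replicate 3 highest in 11 (37.2%).

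**Figure D4:**
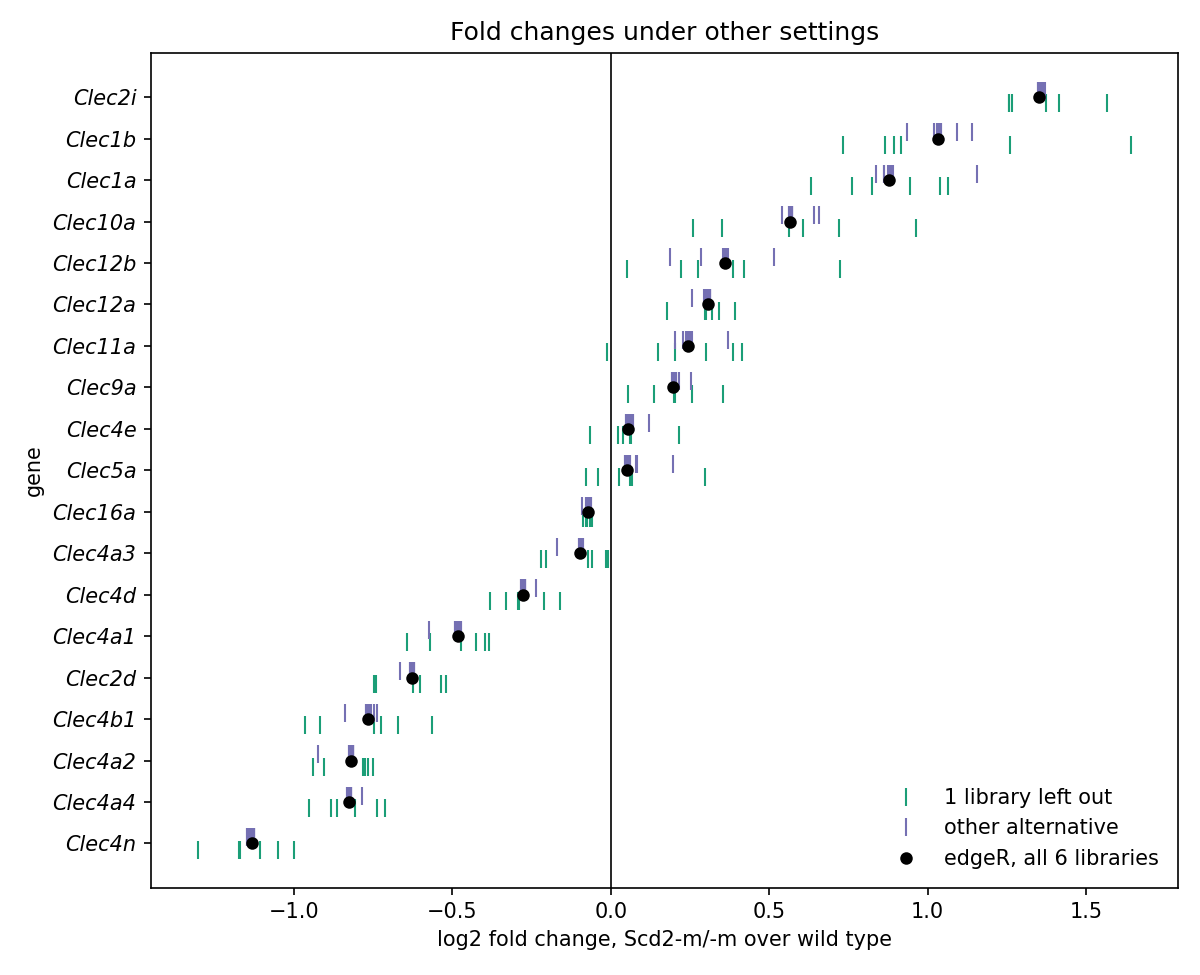
Log2 fold change of *Scd2-m/-m* over wild type for the 19 tested C-type lectin receptor genes with all 6 libraries (black points), with 1 library left out (green ticks) and under other settings (purple ticks). The ticks of the 7 called genes stay on 1 side of 0, and those of *Clec4e*, *Clec5a* and *Clec11a* cross it.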

How the data were processed

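RNA sequencing of BMDMs was compared between 3 wild-type and 3 *Scd2-m/-m* libraries (labelled WT and Scd2-KO), grouped by their labels. The authors aligned reads with STAR to the mouse Ensembl primary assembly (GRCm38) and deposited raw counts, whole numbers for each gene and library. The counting tool and strand setting were not given in the sources used here, so reads of overlapping or similar genes may be misassigned. The authors' own comparison table (fold changes, p-values, log2 CPM) was not used. After 276 repeated entries were removed, 40481 genes remained. The test was edgeR 4.0.16 (filterByExpr, TMM factors of 0.979 to 1.018, robust quasi-likelihood fit, Benjamini-Hochberg adjustment over 14778 genes) in R 4.3.3, checked on simulated data. RPKM used the merged length of all GENCODE (GRCm38) exons of a gene, and shared sequence was counted in stretches of 50 bases. A gene at 10 counts in the smallest library is at 0.217 CPM. Replicates differed by more than counting noise. Alternatives were other scalings, filters, tools and thresholds, a replicate block, halved counts and each library left out. Named genes were all members, *Scd2*, *Fcer1g*, *Tyrobp*, *Syk*, *Card9*, *Mrc1*, and up to 5 called genes per direction with the smallest p in the partner and lectin-domain lists. *Spi1*, *Hcst*, *Rela*, *Rel*, *Clec7a*, *BC064078*, *Gm27514* and the marker examples were named after their values were seen. The values of 1 gene of the lectin-domain list are not reported here. The members, lists and motifs were chosen with earlier results of these data known.

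Marker lists were used for summed levels and counts of calls. Those not given above were neutrophil (186 to 194 CPM in wild-type and 167 to 200 CPM in *Scd2-m/-m* libraries, 7 of 11 tested higher and 1 lower), B cell (158 to 231 and 213 to 248 CPM, 3 of 5 higher), megakaryocyte and platelet (64.4 to 72.7 and 53.5 to 54.6 CPM, 1 of 6 lower), endothelial (49.8 to 56.3 and 75.7 to 93.4 CPM, 1 higher and 1 lower of 5), fibroblast (3.03 to 5.14 and 3.62 to 3.98 CPM, 0 of 5 called) and eosinophil, basophil and mast cell (10.7 to 13.7 and 8.97 to 11.8 CPM, 0 of 4 called).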

Additional observations from a re-analysis of the deposited data

How the results depend on the processing

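Of the 7 called receptor genes, *Clec2d*, *Clec2i*, *Clec4a2*, *Clec4a4* and *Clec4n* kept their call in all 16 alternative fits, and *Clec12a* and *Clec4b1* lost it only in fits with 1 library left out. All 7 directions held in these fits. The count of called receptor genes was 12 with limma-voom quality weights, 4 at an FDR below 0.01, 0 with a log2 fold change above 2 required as well, and 5 to 8 with 1 library left out. For partner genes, 17 in the report, these counts were 26, 9, 0 and 10 to 17, with the 10 without wild-type replicate 2. For other lectin-domain genes, 6 in the report, they were 11 with quality weights, 0 past a log2 fold change of 2, and 4 to 8 with 1 library left out. Over all genes, 2585 in the report, they were 4507, 1331 at an FDR below 0.01, 98 and 1440 to 2567, with 1440 without *Scd2-m/-m* replicate 2 and 1490 without wild-type replicate 2. The cause was not tested, although fits without a library hold fewer samples.

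With the replicate number as a block, 10 receptor genes were called (*Clec1b*, *Clec4a1* and *Clec10a* in addition), as were 21 partner genes, 10 other lectin-domain genes and 2974 genes in all. *Mrc1* was called higher with the block (0.41, FDR = 0.000323) and with quality weights. Over all tested genes, deviations of same-numbered libraries from their group means correlated at 0.053, -0.0196 and 0.0398, and not every library correlated best with its own number. No label ties the numbers across genotypes. Among the tested receptor genes, replicate 1 was lowest in 10 and 12 and replicate 3 highest in 12 and 11 of 19, and whether same-numbered libraries share a batch was not tested.

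With 1 library left out, the log2 fold change lay between -0.0651 and 0.2158 for *Clec4e*, -0.0783 and 0.2983 for *Clec5a*, -0.0119 and 0.4135 for *Clec11a* and -0.0375 and 0.0689 for *Fcer1g*. Fits that turned a sign gave -0.0651 for *Clec4e* without wild-type replicate 3, -0.0413 and -0.0783 for *Clec5a* without wild-type replicates 2 and 3, -0.0119 for *Clec11a* without *Scd2-m/-m* replicate 2, and for *Fcer1g* -0.0233 with quality weights, -0.0001 without wild-type replicate 2 and -0.0375 without *Scd2-m/-m* replicate 3. None of these genes was called in the main fit with all 6 libraries, and *Clec5a* was called higher without wild-type replicate 1. Receptor genes under about 1 CPM rest on fewer than 100 counts in a library, so only large differences in them could be called.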
